A study of Homo sapiens with 8 samples.

Results

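Transcripts of 43 lysosomal genes were followed in a human triple-negative breast cancer line and a line without mitochondrial DNA that is given as its derivative under arginine starvation. The genes were taken from a fixed list of lysosomal enzymes, lysosomal membrane proteins, subunits of the proton pump of the lysosome (the vacuolar ATPase, V-ATPase) and the TFEB family of transcription factors. All 43 listed symbols were found among the 23393 genes of the read-count table, and all 43 were among the 15262 genes that passed the filter on low counts, so none of the listed genes was left out. Their roles divided them into 8 proteases, 6 glycosidases, 1 sulfatase, 4 lipid-degrading enzymes with their activator, 6 membrane and cholesterol transport proteins, 3 transcription factors, 5 V0 subunits, 8 V1 subunits and 2 accessory proteins of the V-ATPase.

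MDA-MB-231 is a breast cancer line of mesenchymal character known for low ASS1, the enzyme with which cells make arginine from citrulline, and it depends on arginine from the medium. Parental MDA-MB-231 cells and ρ0 cells, a clone numbered 27 that lacks mitochondrial DNA, were sequenced untreated or after 48 h with arginine deiminase (ADI, 0.3 µg/mL), an enzyme that breaks down arginine in the medium and was added to full growth medium according to the labels. Each of the 4 groups (parental control, parental arginine-starved, ρ0 control, ρ0 arginine-starved) had 2 libraries. Both lines grew in high-glucose DMEM with serum and antibiotics by the labels, while the study's methods add that ρ0 cells, received as a gift, were kept with sodium pyruvate, uridine and ethidium bromide, and describe starvation by arginine-free medium. The effects of lost mitochondrial DNA, of the history of 1 clone and of these additives on a difference between the lines cannot be told apart.

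The lysosome is the acidic compartment in which proteins, glycans and lipids delivered by endocytosis and autophagy are broken down. Its hydrolases work at low pH, which the V-ATPase maintains by pumping protons with its membrane-embedded V0 sector, driven by ATP hydrolysis in its cytosolic V1 sector. The TFEB family binds E-box sequences upstream of many lysosomal genes, and its members are known to be held in the cytosol by phosphorylation when mTORC1, the amino acid-sensing kinase complex, is active on the lysosomal surface. The mRNA level of these factors therefore does not report their activity.

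The libraries held between 25259503 and 31022155 counts, of which the 43 genes took between 0.641% and 1.16%. Levels are given as CPM, a gene's count relative to the size of its library after scaling by edgeR's TMM factors. The quasi-likelihood F-test of edgeR, with all 8 libraries in 1 fit and Benjamini-Hochberg adjustment over the 15262 genes, served for every comparison. A gene is called higher or lower at an adjusted p under 0.05, and up- or down-regulated (a differentially expressed gene, DEG) where its log2 fold change was also above 1 or below -1. No label says that the libraries of a group came from separate cultures, so the p-values measure the spread between these libraries, which may be technical. The 2 ρ0 control libraries stood apart from the other pairs. Their biological coefficient of variation was 25.1%, against 5.18% between the parental control libraries, 2.25% between the starved parental libraries and 1.84% between the starved ρ0 libraries. Among the 43 genes, the median difference within the ρ0 control pair was 0.227 on the log2 scale, with 0.938 for LIPA, whereas the median was 0.0538 in parental control, 0.0314 in parental starved and 0.0353 in ρ0 starved cells. For this reason, the main counts for the comparisons with ρ0 control cells, and the values of a number of genes, are also given without each of these libraries. A value printed on its own is not thereby shown to be stable. In bulk samples, fewer cells of a type and less RNA per cell cannot be told apart.

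The markers of the line were present in all 8 libraries. VIM, the mesenchymal filament protein, ranged from 13630 to 113045 counts, and CD44, AXL, CAV1 and KRT18 were likewise abundant. In starved parental cells VIM was at 540 and 522 CPM, against 1697 and 1786 CPM in control. CAV1 (101 and 107 against 283 and 298 CPM) and CD44 (517 and 527 against 810 and 809 CPM) were also lower there. AXL and KRT18 were higher. Of the embryonic kidney genes examined, PAX2 and LHX1 had at most 1 count in any library. GATA2 was at 38.4 and 39.0 CPM in parental control and at 106 CPM in both starved parental libraries. Of 6 luminal breast markers, the hormone receptor genes ESR1 and PGR had at most 6 counts in any library. Although the ρ0 line is given as a derivative of the parental line, the lines differed in luminal genes. CDH1, the epithelial cadherin, had 2, 0, 0 and 2 counts in the parental libraries and 457, 440, 141 and 104 counts in the ρ0 libraries, and FOXA1 had 245, 212, 236 and 277 counts in parental cells but between 1 and 4 counts in ρ0 cells. GATA3 ranged from 121 to 157 counts in parental and from 250 to 579 counts in ρ0 libraries, and ERBB3 from 39 to 770 counts, highest in parental control. Of 6 genes of macrophages, cells rich in lysosomes, TYROBP was at 0 and CD163 had at most 3 counts in every library, and PTPRC and ITGAM had at most 13 and 30. CD14 (at most 92 counts) and CSF1R (at most 132 counts) had their highest counts in ρ0 control libraries. Of 5 melanocyte genes, examined because MITF is best known from that lineage, MLANA, TYR, DCT and SOX10 had at most 9 counts and PMEL at most 138. Whether the ρ0 line differs from the parental line only by its mitochondrial DNA and its culture could not be settled from these counts, which bears on every difference between the lines given below. The part of the marker differences in the results was not tested, and transcripts of the mitochondrial genome were not analysed here.

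Promoter sequences show which of the 43 genes carry the E-box that the TFEB family reads. Promoters of 300 bases, from 250 bases before to 50 bases after the RefSeq transcription start (GRCh38.p14), were at hand for 30 of the 43 genes. The E-box CACGTG (a palindrome, the same on both strands) was found in 9 of the 30 (30.0%) and in 7.26% of all 35116 promoters of the table. The extended form TCACGTG, searched on both strands and containing CACGTG, was in the same number of the 30 (30.0%) against 3.71% of all, and a palindrome in which TCACGTG is preceded by G and followed by AC, which contains both, was in 3 of 30 (10.0%) against 0.353% of all. A match of letters is a description and shows no binding. The windows of 30 bases around one match in each of the 9 promoters are printed because they hold the motif, with CACGTG in capitals, together with the neighbouring bases that match the longer forms:
ATP6V0B: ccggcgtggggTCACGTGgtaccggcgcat
NEU1: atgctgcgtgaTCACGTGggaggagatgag
ATP6V1G1: acgctgtgcgGTCACGTGACaacgggggcg
CTSD: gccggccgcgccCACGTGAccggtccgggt
LAMP1: accaggccgggTCACGTGggtccagggtca
ATP6V0D1: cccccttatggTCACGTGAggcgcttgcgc
GAA: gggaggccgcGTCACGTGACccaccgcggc
MCOLN1: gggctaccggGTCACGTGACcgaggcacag
CTSA: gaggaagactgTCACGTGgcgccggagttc

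The windows of ATP6V0B (chr1:43974891-43974920), ATP6V1G1 (chr9:114587699-114587728), LAMP1 (chr13:113297035-113297064), GAA (chr17:80101493-80101522), MCOLN1 (chr19:7522598-7522627) and CTSA (chr20:45891281-45891310) lie on the plus strand. Those of NEU1 (chr6:31862930-31862959), CTSD (chr11:1763957-1763986) and ATP6V0D1 (chr16:67481199-67481228) lie on the minus strand and are printed 5′ to 3′ on it. Most lie shortly upstream of the start: the first base of CACGTG was at position -57 in ATP6V0B, -58 in ATP6V1G1, -59 in ATP6V0D1, -47 in CTSD and -42 in CTSA. LAMP1 held 6 copies, the first at position -192 and the last at -1. GAA, MCOLN1, ATP6V0B and CTSA each held 2.

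In parental cells, 16 of the 25 enzymes, activator and membrane proteins were lower after arginine starvation, while 7 of the 15 V-ATPase genes were higher. Of the 43 genes, 12 were higher and 20 lower, against 30.4% higher and 35.5% lower (65.9% in either direction) among all genes tested. The DEGs numbered 4 up-regulated and 11 down-regulated, against 12.7% and 22.1% (34.9% in either direction) of all genes. Of the 20 lower and 11 down-regulated genes, 16 and 11 belonged to the 25 enzymes, activator and membrane proteins, and 3 of the 25 were higher. Their median log2 fold change was -0.83, beside -0.07 over all genes. In the 15 V-ATPase genes, 7 were higher and 3 lower with a median of 0.11, which became -0.01 with upper quartile scaling and -0.05 with scaling by total counts, the 2 scalings that moved the median of all genes to -0.19 and -0.23. The median of the 25 was -0.95 and -0.99 with these scalings. The 2 parental groups did not overlap for 39 of the 43 genes, against 89.2% of all genes.

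**Figure D1:**
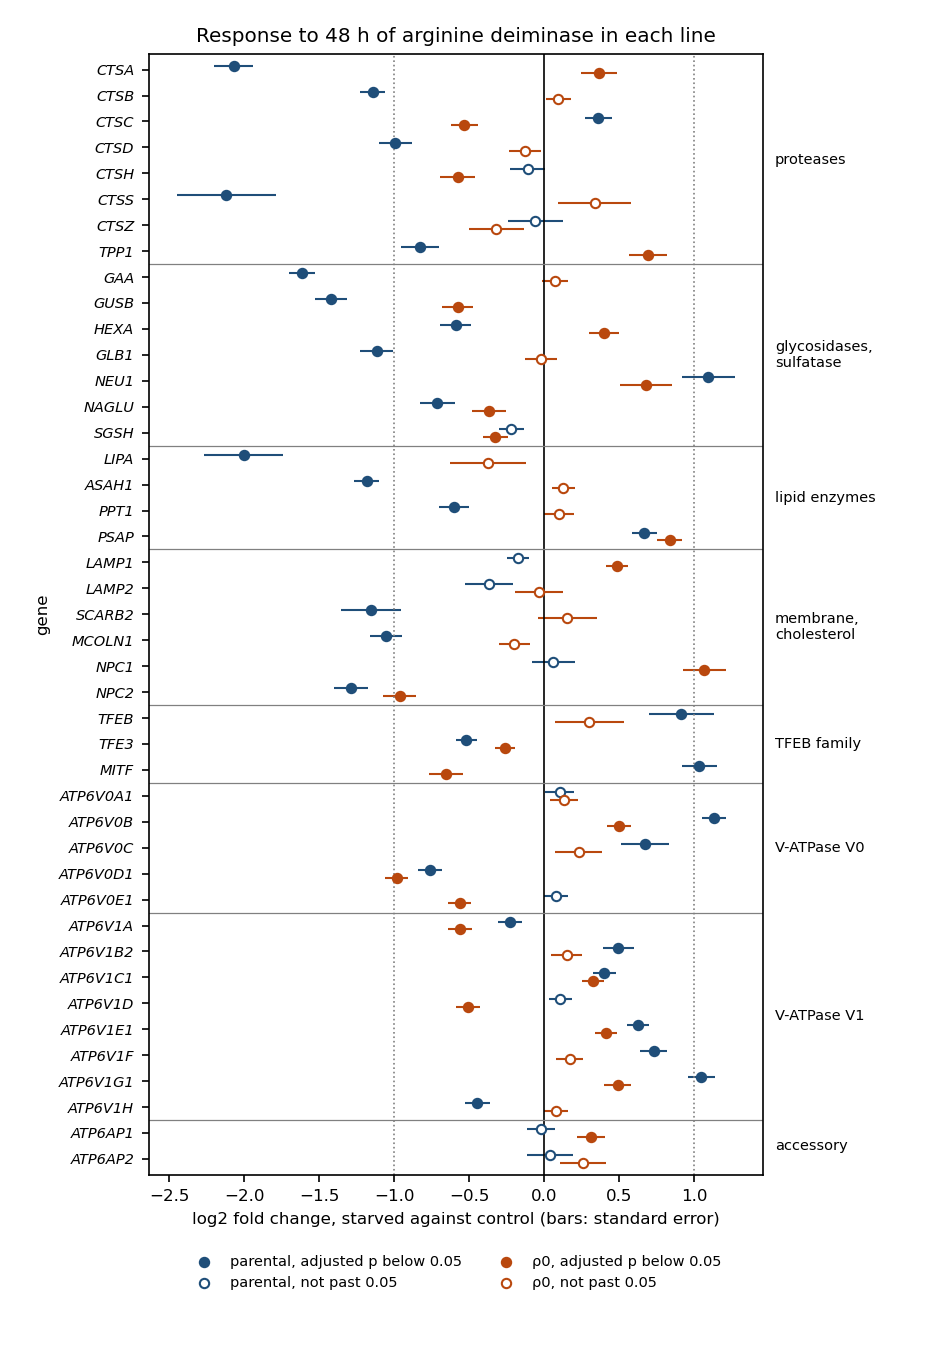
Log2 fold change of each of the 43 genes after 48 h of arginine deiminase in parental (blue) and ρ0 cells (orange), with standard errors from edgeR. Filled points passed an adjusted p of 0.05, and dotted lines mark log2 fold changes of -1 and 1. Blue points of enzymes and membrane proteins lie mostly to the left of 0, while those of V-ATPase subunits lie on both sides.

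Among the proteases, CTSA (cathepsin A, a carboxypeptidase that also protects NEU1 and GLB1 in a complex) was at 157 and 168 CPM in parental control and at 38.8 and 38.5 CPM in starved parental cells. The change was -2.07 ± 0.13 on the log2 scale (SE; adjusted p = 1.58e-05), and its gene overlaps PLTP in RefSeq. CTSS, a cysteine protease of antigen-presenting cells, was a minor transcript in parental cells, with 6.21 and 6.46 CPM in control and 1.23 and 1.67 CPM after starvation (-2.12 ± 0.33, adjusted p = 0.000911). CTSB (-1.14 ± 0.085), CTSD (-0.99 ± 0.11) and the tripeptidase TPP1 (-0.83 ± 0.13) also fell. CTSC, the dipeptidase that activates serine proteases in granules, was the only protease of the 8 called higher, from 817 and 810.0 to 1023 and 1066 CPM (0.36 ± 0.090, adjusted p = 0.00899). That call was lost with total-count scaling (0.20) and without parental control replicate 2 or parental starved replicate 2. CTSH (-0.11 ± 0.11) and CTSZ (-0.06 ± 0.18) did not pass the test.

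Of the 6 glycosidases, 5 were lower. GAA, the acid α-glucosidase that degrades lysosomal glycogen, dropped from 198 and 194 to 64.4 and 63.7 CPM (-1.61 ± 0.089, adjusted p = 1.14e-05). GUSB, which removes glucuronic acid from glycosaminoglycans, was at 50.4 and 54.6 CPM before and at 19.3 and 19.99 CPM after starvation (-1.42 ± 0.11, adjusted p = 3.15e-05). This gene has 11 named pseudogenes in GENCODE 29, and how reads were shared among copies is not stated. GLB1 (-1.12 ± 0.11), NAGLU (-0.71 ± 0.12) and HEXA (-0.59 ± 0.10) were lower as well. NEU1, the sialidase that trims sialic acid from glycoproteins, went up instead, from 84.0 and 91.9 to 192 and 183 CPM (1.09 ± 0.17, adjusted p = 0.00101). The sulfamidase SGSH narrowly missed the threshold (-0.22 ± 0.084, adjusted p = 0.0507).

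LIPA, the acid lipase that frees cholesterol and fatty acids from lipoproteins, was among the strongest decreases. It was at 127 and 124 CPM in control and at 30.9 and 31.6 CPM in starved parental cells (-2.00 ± 0.27, adjusted p = 0.000398). In RefSeq its span overlaps 5 genes of the table, all of the interferon-induced IFIT family, and the strand used in counting is not stated. In all, 8 of the 43 genes overlap another gene of the table. Besides CTSA and LIPA they are GLB1, SGSH, PPT1, SCARB2, NPC2 and ATP6V1D, and the same limit holds for their values. The ceramidase ASAH1 (-1.18 ± 0.082) and the thioesterase PPT1 (-0.60 ± 0.10) fell with LIPA. PSAP, the precursor of the saposins that present sphingolipids to their hydrolases, moved the other way, from 976 and 1013 to 1586 and 1571 CPM (0.67 ± 0.083, adjusted p = 0.00029). Because of its abundance, the summed CPM of these 4 genes was higher in starved than in control libraries (1811 and 1799 against 1413 and 1460.2), although 3 of the 4 were lower.

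Of the 6 membrane and cholesterol transport proteins, 3 were lower in starved parental cells and the other 3 did not pass the test. NPC2, the soluble carrier that hands cholesterol to NPC1, was at 77.1 and 85.6 CPM and then at 32.1 and 34.6 CPM (-1.29 ± 0.11, adjusted p = 5.52e-05). NPC1, its membrane-bound partner, was at 522 and 496 CPM in control and at 537 and 524 CPM in starved cells, which did not overlap but lay close together (0.06 ± 0.14, adjusted p = 0.727). SCARB2, an abundant integral protein of the lysosomal membrane (-1.16 ± 0.20), and MCOLN1, the calcium channel of the lysosomal membrane (-1.06 ± 0.11), were down-regulated. LAMP1 and LAMP2, the abundant glycoproteins that line the membrane, had smaller changes. LAMP1 was at 293 and 296 CPM in control and 261 in both starved libraries (-0.17 ± 0.074, adjusted p = 0.0719), and LAMP2 at 155 and 142 against 113 and 116 CPM (-0.37 ± 0.16, adjusted p = 0.0759). For both, the 2 groups did not overlap and the test was narrowly missed, while it was passed with upper quartile scaling (-0.29 and -0.49, adjusted p = 0.00906 and 0.0267), with total counts, with 1 line alone and without either ρ0 control library.

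**Figure D2:**
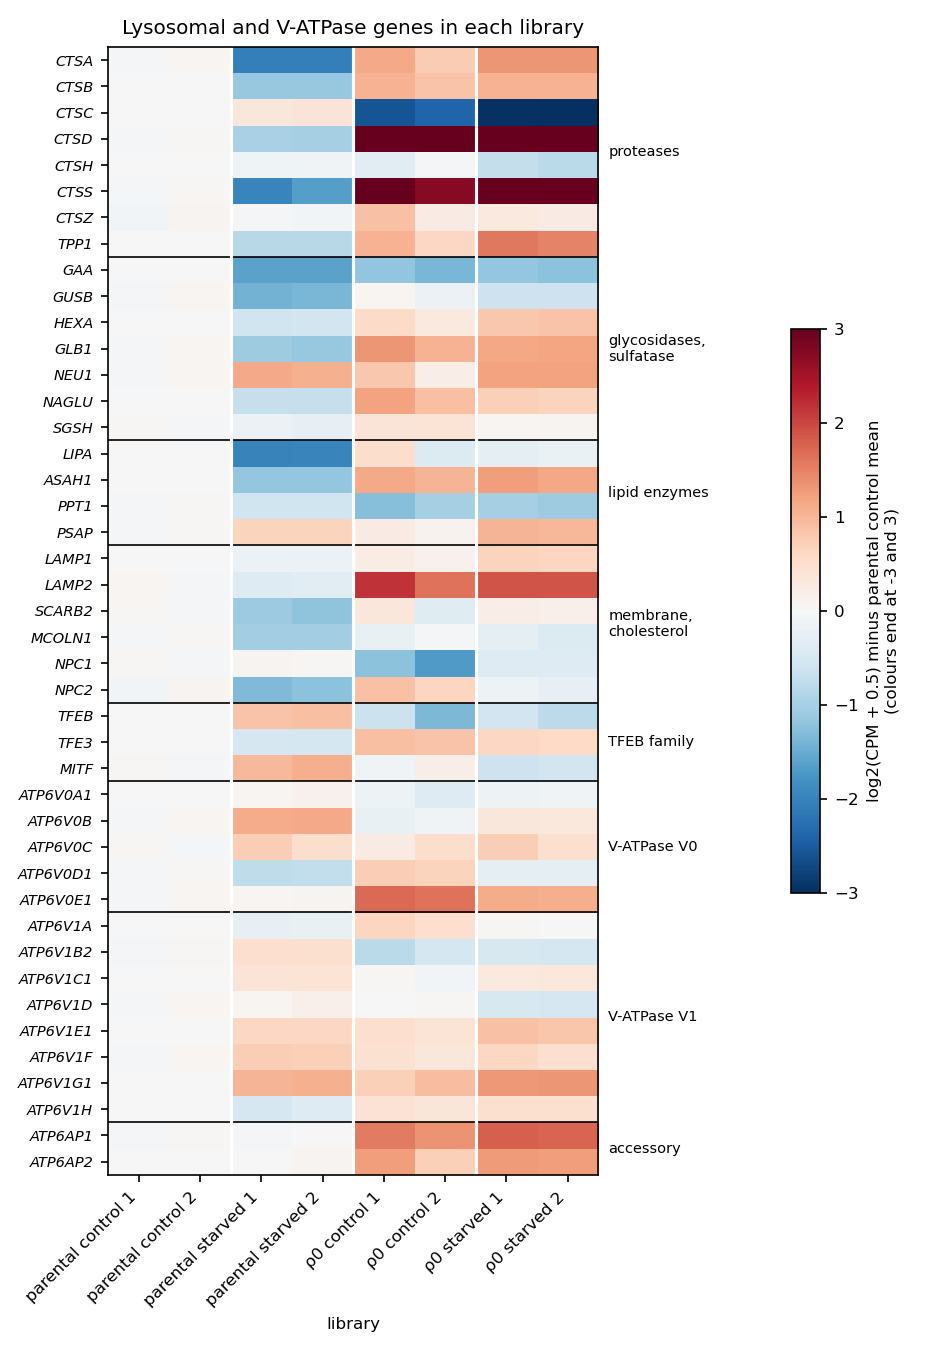
Level of each of the 43 genes in each library, as log2(CPM + 0.5) minus the mean of the parental control libraries, with colours ending at -3 and 3. Rows are grouped by role. The starved parental columns are blue for most enzymes, and the ρ0 columns are red for CTSD, CTSS and LAMP2 and blue for CTSC.

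The 3 transcription factors did not respond alike. TFEB was a low transcript that rose from 12.98 and 12.9 to 23.998 and 24.7 CPM in parental cells (0.91 ± 0.22, adjusted p = 0.00705). MITF rose from 45.3 and 43.4 to 86.9 and 94.8 CPM (1.03 ± 0.11, adjusted p = 0.000163). TFE3, the most abundant of the 3 in parental control cells, fell from 89.2 and 87.4 to 62.2 and 61.1 CPM (-0.52 ± 0.070, adjusted p = 0.000431). In each case the starved and control libraries did not overlap.

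V-ATPase subunits of one complex changed in different directions in parental cells. In the V0 sector, ATP6V0B, a proteolipid of the proton-carrying ring, was at 104 and 112 CPM in control and 235 and 238 CPM after starvation (1.13 ± 0.081, adjusted p = 2.56e-05). ATP6V0C, the main proteolipid, rose too (0.67 ± 0.16), although it has 4 named pseudogenes and only 9.24 to 16.4 CPM in any library, and its call was lost without parental control replicate 2 or parental starved replicate 1. ATP6V0D1, which couples the sectors, fell from 54.1 and 57.3 to 32.5 and 33.2 CPM (-0.76 ± 0.079, adjusted p = 0.000119). In the V1 sector, ATP6V1G1, part of the peripheral stalk, went from 72.2 and 72.4 to 147 and 152 CPM (1.05 ± 0.089, adjusted p = 5.05e-05), and it has 5 named pseudogenes. ATP6V1F, ATP6V1E1, ATP6V1B2 and ATP6V1C1 were higher by 0.73, 0.63, 0.49 and 0.40 on the log2 scale. The catalytic subunit ATP6V1A (-0.23 ± 0.078) and the regulatory subunit ATP6V1H (-0.45 ± 0.082) were lower, the former not without any 1 of the parental or starved ρ0 libraries. Of the up-regulated DEGs (NEU1, MITF, ATP6V0B and ATP6V1G1), 1 was left with upper quartile scaling and 0 with total counts, since all 4 lay close to the fold threshold.

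In ρ0 cells 7 of the 25 enzymes, activator and membrane proteins were higher and 6 lower. Their median log2 fold change was 0.07 beside -0.02 over all genes, and its sign turned with the ρ0 control library left out. Over all 43 genes, 12 were higher and 12 lower, against 19.2% and 22.1% (41.3% in either direction) of all genes tested, and the groups did not overlap for 30 of them, against 67.5% of all genes. The only DEG was NPC1, against 4.22% of all genes up-regulated and 8.19% down-regulated. Without ρ0 control replicate 1 the counts were 23 higher and 13 lower, and without ρ0 control replicate 2 they were 15 and 18, with all 24 calls kept in both cases. The median of the 25 was 0.18 and -0.10 in these fits, in which the remaining control library is assumed to vary like the other groups, and -0.00399 with total-count scaling.

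NPC1, which exports cholesterol from the lysosome, was at 218 and 157 CPM in ρ0 control and at 392 and 391 CPM in starved ρ0 cells (1.07 ± 0.14, adjusted p = 0.00127). It was 1.32 without ρ0 control replicate 1 and 0.86 without replicate 2. PSAP rose from 1174 and 1063 to 2005 and 1989 CPM (0.84 ± 0.083, adjusted p = 0.000395), as it did in parental cells. TPP1, at 265 and 199.9 CPM in control, reached 385 and 365 CPM (0.69 ± 0.13, adjusted p = 0.0045; 0.91 and 0.52 without ρ0 control replicate 1 and 2). NEU1 went from 153 and 101 to 203 and 204 CPM (0.68 ± 0.17, adjusted p = 0.0174), a change that was 1.01 without ρ0 control replicate 1 and 0.42 without replicate 2, and that missed the threshold when either starved ρ0 library was left out (adjusted p = 0.0827 and 0.0808). LAMP1 rose from 344 and 319.8 to 469 and 461 CPM (0.49 ± 0.074, adjusted p = 0.00209).

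Of the 12 genes that were lower in starved ρ0 cells, 6 were also lower in starved parental cells. ATP6V0D1 dropped from 92.6 and 88.5 to 46.4 and 45.2 CPM (-0.98 ± 0.078, adjusted p = 0.000199), and NPC2 from 151 and 126 to 73.2 and 68.6 CPM (-0.96 ± 0.11, adjusted p = 0.000636). Both had fallen in parental cells. CTSH, an aminopeptidase (-0.58 ± 0.12), CTSC (-0.53 ± 0.092), ATP6V0E1 (-0.56 ± 0.079), ATP6V1A (-0.56 ± 0.078) and ATP6V1D (-0.51 ± 0.078) were also lower. The call of CTSH was lost with 1 line alone and without starved ρ0 replicate 2. LAMP2, at 664 and 457 CPM in control and 547 CPM in both starved libraries, lay within the spread of the control pair (-0.03 ± 0.16, adjusted p = 0.889). Its value was 0.26 without ρ0 control replicate 1 and -0.27 without replicate 2, both past the threshold (adjusted p = 0.000191 and 0.00013). LIPA (0.17 and -0.76) and SCARB2 (0.54 and -0.14) were likewise called in opposite directions without 1 or the other of these libraries, so no direction can be given for these 3 genes in ρ0 cells.

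MITF fell in ρ0 cells, from 41.4 and 50.9 to 28.5 and 30.1 CPM (-0.65 ± 0.12, adjusted p = 0.00384), and the value was -0.80 and -0.49 without ρ0 control replicate 1 and 2. TFE3 went from 165 and 159 to 136 and 134 CPM (-0.26 ± 0.069, adjusted p = 0.0197), and it missed the threshold without either starved library of either line (adjusted p between 0.0609 and 0.176). TFEB was at 8.12 and 4.79 CPM in ρ0 control and at 8.52 and 7.33 CPM in starved ρ0 cells (0.30 ± 0.23, adjusted p = 0.33). Its change was 0.73 without ρ0 control replicate 1 and -0.014 without replicate 2, so that its direction rested on 1 library.

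**Figure D3:**
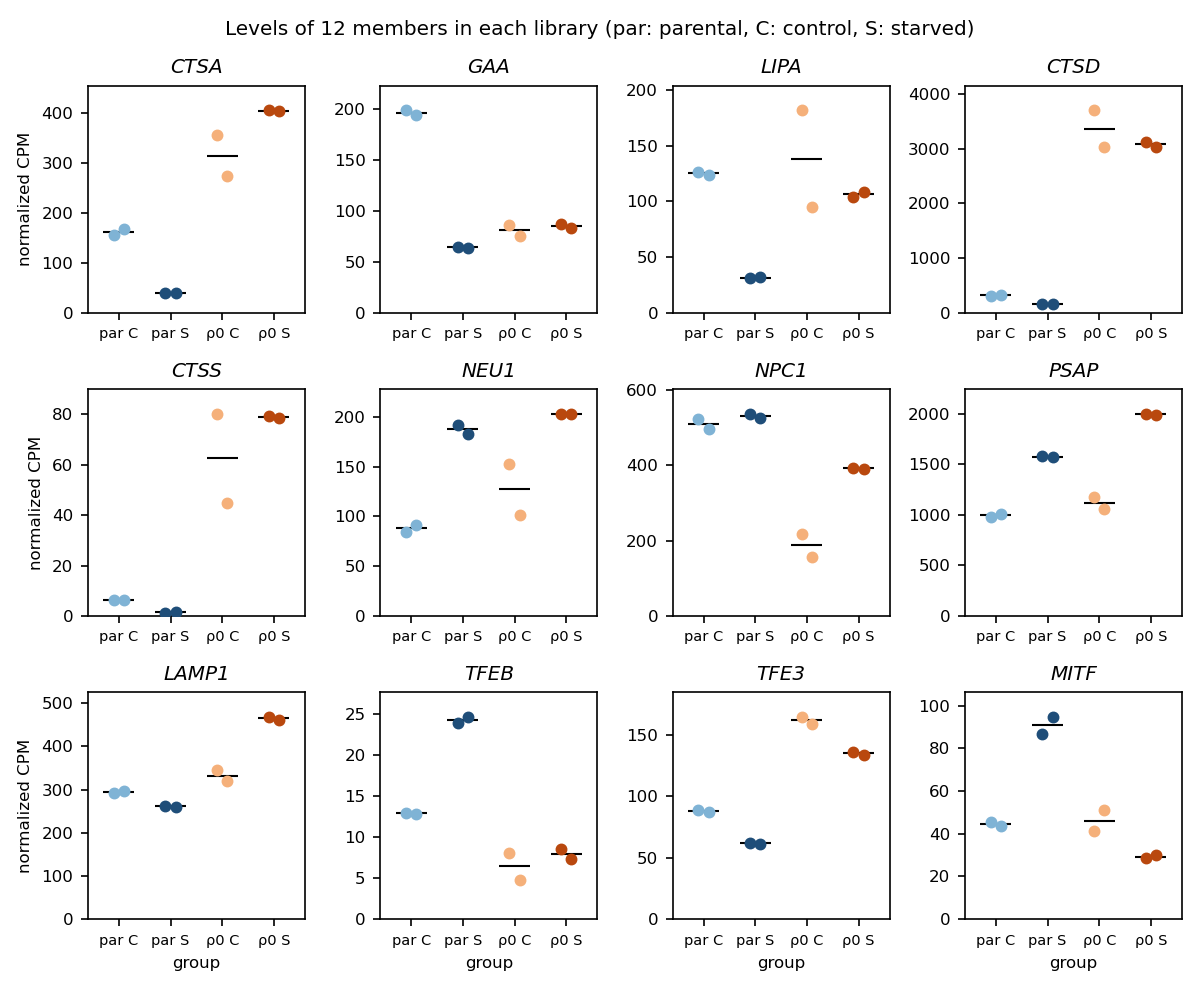
Normalized CPM of 12 of the genes in each library (points) with the group mean (line); the vertical axes start at 0 and differ between panels. CTSA, GAA and LIPA fell in starved parental cells (par S), NPC1 and LAMP1 were higher in starved ρ0 cells, and the 2 ρ0 control points lie apart for LIPA, CTSS and NEU1.

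Set side by side, 6 genes were higher in both lines after starvation (NEU1, PSAP, ATP6V0B, ATP6V1C1, ATP6V1E1 and ATP6V1G1; 13.1% of all genes) and 6 were lower in both (GUSB, NAGLU, NPC2, TFE3, ATP6V0D1 and ATP6V1A; 14.6% of all genes). Without either starved ρ0 library, NEU1, ATP6V1C1, NAGLU and TFE3 no longer passed the test in ρ0 cells, nor did GUSB without starved ρ0 replicate 2. Another 11 were lower in parental cells and did not pass the test in ρ0 cells, against 19% of all genes, namely CTSB, CTSD, CTSS, GAA, GLB1, LIPA, ASAH1, PPT1, SCARB2, MCOLN1 and ATP6V1H. That number depended on the ρ0 control pair. Without replicate 1 and 2 of that pair, the ρ0 values were 0.82 and -0.011 for CTSS and 0.18 and 0.022 for CTSB. They were 0.026 and -0.25 for CTSD and 0.13 and -0.15 for GLB1. In 5 genes the direction was opposite and called in both lines, against 3.64% of all genes. CTSA, TPP1 and HEXA were lower in parental and higher in ρ0 cells, and CTSC and MITF the reverse. This count also depended on the ρ0 control pair. Without replicate 1 the ρ0 value was 0.54 for SCARB2 and 0.17 for LIPA, opposite to their parental change. Without replicate 2 it was -0.14 and -0.76. CTSA was at 356 and 273 CPM in ρ0 control and 406 and 405 CPM in starved ρ0 cells (0.36 ± 0.12, adjusted p = 0.0475), and that rise was lost with upper quartile or total-count scaling, with the filter of 10 counts, with the replicate number as a block, with 1 line alone and without any 1 of the parental or starved ρ0 libraries. It was 0.57 without ρ0 control replicate 1 and 0.20 without replicate 2. HEXA (0.40 ± 0.10, adjusted p = 0.0175) missed the threshold without either starved ρ0 library, and its value was 0.55 and 0.28 without ρ0 control replicate 1 and 2.

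The difference between the responses was tested itself, as the interaction of line and starvation. Of the 43 genes, 17 responded higher in ρ0 than in parental cells and 8 lower, against 21.6% and 18.8% (40.4% in either direction) of all genes. Of the 17, 16 were among the 25 enzymes, activator and membrane proteins, whose median difference was 0.86 (log2, ρ0 minus parental) beside 0.02 over all genes. It was 0.96 without ρ0 control replicate 1 and 0.76 without replicate 2, and the number of the 25 that responded higher was 20 and 16. In the 15 V-ATPase genes, 1 responded higher (ATP6V1H) and 6 lower (ATP6V0B, ATP6V0E1, ATP6V1A, ATP6V1D, ATP6V1F and ATP6V1G1), with a median of -0.33. Without ρ0 control replicate 1 and 2, all 43 genes gave 24 higher and 12 lower, and 19 higher and 16 lower. Of the 6, the call of ATP6V1A was lost with upper quartile or total-count scaling, without a filter, with the replicate number as a block and without any 1 of the parental or starved ρ0 libraries. The 6 became 3 without starved parental replicate 2 and 10 without ρ0 control replicate 2. The sign was the same for both replicate numbers in 40 of the 43 genes, against 81.4% of all genes.

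By size, the interaction was led by CTSS (2.45 ± 0.41, adjusted p = 0.00382) and CTSA (2.44 ± 0.18, adjusted p = 0.000232). GAA followed with 1.69 ± 0.12 (adjusted p = 0.000232), and in ρ0 cells it was at 86.3 and 75.3 CPM in control and 87.0 and 82.9 CPM after starvation. LIPA (1.63 ± 0.36, adjusted p = 0.0111) had control values of 182 and 94.8 CPM in ρ0 cells on either side of the starved values of 104 and 109 CPM, and its interaction was 2.18 without ρ0 control replicate 1 and 1.21 without replicate 2. For TPP1 the difference was 1.52 ± 0.18 (adjusted p = 0.00111). MITF gave the strongest difference in the other direction, at -1.69 ± 0.16 (adjusted p = 0.000544). The interaction of TFEB was -0.61 ± 0.32 (adjusted p = 0.162), and it was -0.18 and -0.97 without ρ0 control replicate 1 and 2 (adjusted p = 0.374 and 2.85e-05). TFE3 (0.26 ± 0.098, adjusted p = 0.073) passed with upper quartile (adjusted p = 0.0257) and total-count scaling (adjusted p = 0.0279) and without either ρ0 control library (0.29 and 0.21, adjusted p = 0.0012 and 0.0156).

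In control medium the ρ0 line carried more transcript of most of these genes. Of the 43, 24 were higher and 7 lower than in parental control cells, against 30.5% and 31.8% (62.3% in either direction) of all genes, and 9 were up-regulated and 5 down-regulated DEGs, against 13.6% and 17.3%. The median was 0.44 for the 25 enzymes, activator and membrane proteins and 0.41 for the 15 V-ATPase genes, beside -0.01 over all genes. Without ρ0 control replicate 1, 28 were higher and 10 lower (7 and 5 DEGs) and the median of the 25 was 0.23. Without replicate 2, 29 were higher and 8 lower (12 and 4 DEGs) and the median was 0.63. The 2 control groups did not overlap for 37 of the 43 genes, against 77.1% of all genes.

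CTSD (cathepsin D, the main aspartic protease of lysosomes) set the lines furthest apart in the fit of all 8 libraries. Without ρ0 control replicate 2 its difference was 3.595 on the log2 scale, smaller than that of CTSS. CTSD was at 310.1 and 326 CPM in parental control and at 3700.2 and 3027 CPM in ρ0 control cells. That was a 10.6-fold difference (3.40 ± 0.12 on the log2 scale, adjusted p = 1.2e-06). After starvation it was at 161 and 159 CPM in parental and 3125 and 3034 CPM in ρ0 cells. CTSS was at 80.4 and 44.96 CPM in ρ0 control cells (3.31 ± 0.27, adjusted p = 4.31e-05; 2.83 and 3.72 without ρ0 control replicate 1 and 2). CTSC showed the opposite, from 817 and 810.0 CPM in parental to 135 and 155 CPM in ρ0 control cells (-2.49 ± 0.096, adjusted p = 1.82e-06). LAMP2 was 3.78-fold higher (1.92 ± 0.17, adjusted p = 5.21e-05), at 664 and 457 CPM in ρ0 cells. ATP6V0E1, a small V0 subunit with 4 named pseudogenes, was at 245 and 231 CPM against 71.3 and 78.4 CPM (1.67 ± 0.081, adjusted p = 4.63e-06). ATP6AP1, an assembly factor of the V-ATPase, was at 241 and 206 CPM against 79.0 and 83.5 CPM (1.46 ± 0.095, adjusted p = 1.5e-05), and ATP6AP2, its partner, was higher as well (1.01 ± 0.16), but only 0.72 without ρ0 control replicate 1, which is below the fold threshold. In addition to CTSC, the genes lower in ρ0 control cells were NPC1 (-1.44 ± 0.14), GAA (-1.28 ± 0.088), PPT1 (-1.13 ± 0.10), TFEB (-1.01 ± 0.23), ATP6V1B2 (-0.67 ± 0.10) and ATP6V0A1 (-0.26 ± 0.094). The value of TFEB was -0.62 without ρ0 control replicate 2, and ATP6V0A1 lost its call when any 1 library except ρ0 control replicate 1 was left out. TFE3 was higher in ρ0 cells (0.88 ± 0.070, adjusted p = 3.58e-05) and MITF did not pass the test (0.06 ± 0.11, adjusted p = 0.685).

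**Figure D4:**
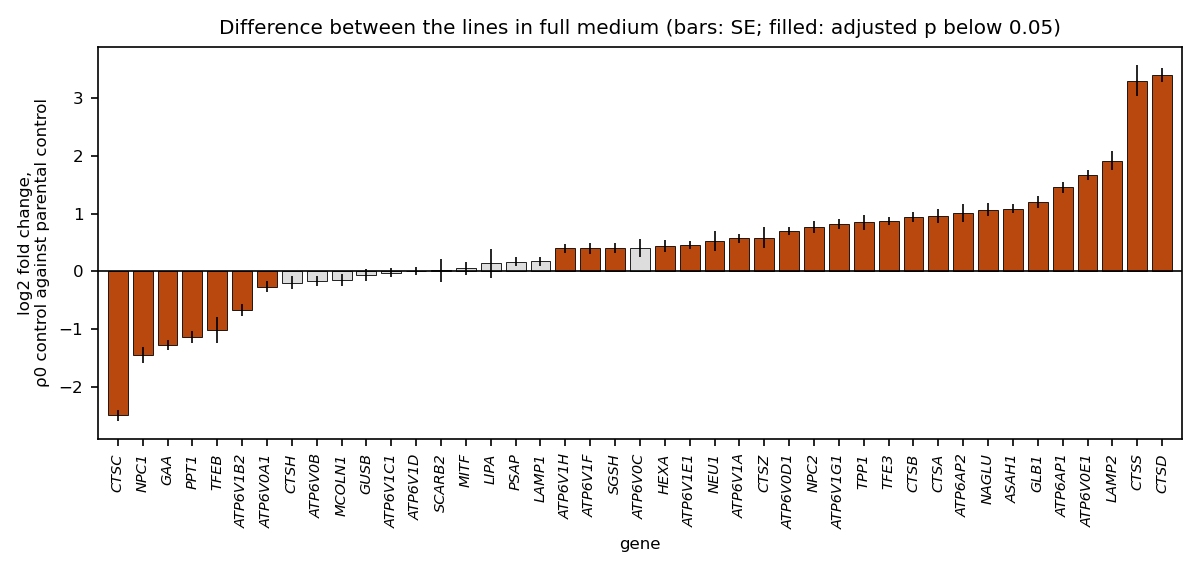
Log2 fold change of each of the 43 genes between ρ0 and parental cells in control medium, in ascending order, with standard errors. Filled bars passed an adjusted p of 0.05; 24 of them point up and 7 down, from CTSC at -2.49 to CTSD at 3.40.

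Summed over the 43 genes, the libraries held 6534 and 6659 CPM in parental control, 6638 and 6672 CPM in parental starved, 11612 and 9746 CPM in ρ0 control and 11939 and 11735 CPM in ρ0 starved cells. Starved and control parental libraries thus had nearly equal sums, while many enzymes were lower and PSAP, CTSC and 7 V-ATPase genes were higher. The summed V-ATPase genes went from 1154 and 1199 to 1513 and 1539.9 CPM in parental cells and from 1743 and 1628 to 1792 and 1764 CPM in ρ0 cells. The 8 proteases summed to 2070.4 and 2127 CPM in parental control and 5808 and 4757 CPM in ρ0 control cells, and CTSD gave the greater share of the latter sums.

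Levels of different genes were compared per kilobase of their principal transcript (GENCODE 29). In parental control cells CTSC (423 CPM per kb), PSAP (346), CTSD (149.8) and CTSZ (126) stood highest. In ρ0 control cells CTSD led with 1584 CPM per kb, followed by PSAP (389), CTSB (218) and CTSZ (189), and CTSC was at rank 13 with 75.3. Among V-ATPase genes the per-length levels spanned 8.13 (ATP6V0C) to 83.1 CPM per kb (ATP6V0B) in parental control and 10.8 (ATP6V0C) to 166 CPM per kb (ATP6V0E1) in ρ0 control cells. The subunits of one pump were thus counted at unequal transcript levels. ATP6V0C and ATP6V0E1 each have 4 named pseudogenes, and how reads were shared among copies is not stated. ATP6V0B, at 83.1 ± 3.99 CPM per kb in parental control, reached 182 ± 1.45 (SD, n = 2) after starvation, the highest of the 15. Of the 43 genes, CTSS was the lowest in parental control (1.54 CPM per kb) and TFEB in ρ0 control cells (2.74 CPM per kb).

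**Figure D5:**
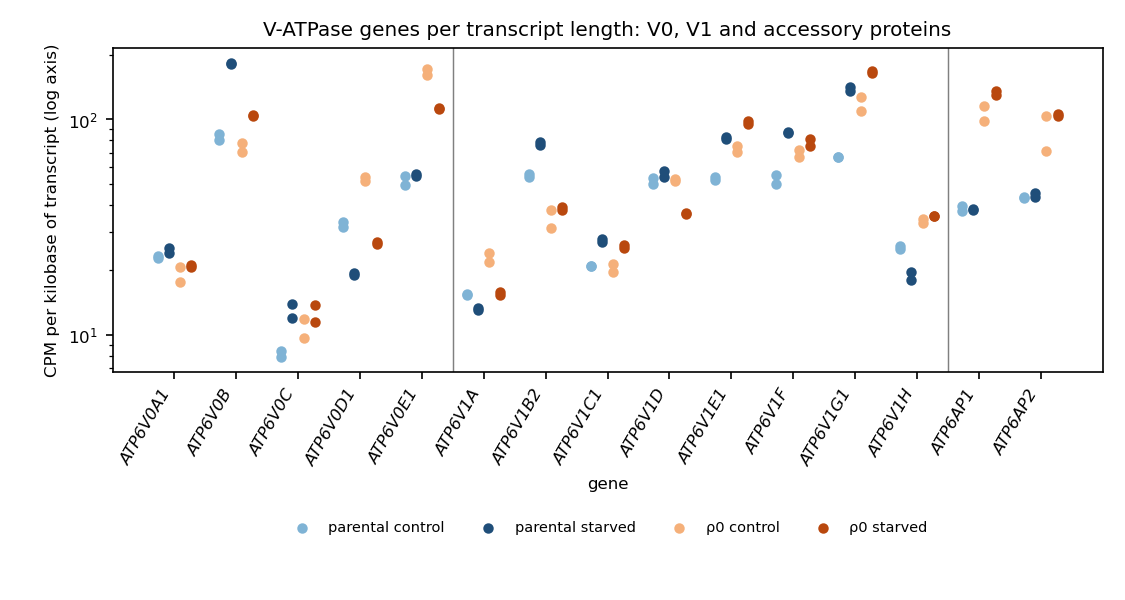
CPM per kilobase of principal transcript for the 15 V-ATPase genes in each library, on a log axis, divided into V0 subunits, V1 subunits and accessory proteins. ATP6V0B and ATP6V1G1 rose with starvation in both lines, ATP6V0D1 fell in both, and ATP6V0E1, ATP6AP1 and ATP6AP2 were higher in ρ0 than in parental cells.

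The 9 genes with CACGTG in their promoters, described above, did not respond in one direction. In parental cells 3 were higher (ATP6V0B, ATP6V1G1 and NEU1), 5 lower (ATP6V0D1, CTSA, CTSD, GAA and MCOLN1) and LAMP1 did not pass the test, beside 30.4% higher and 35.5% lower of all genes. In the 21 genes whose promoter lacks these letters, 6 were higher and 8 lower. In ρ0 cells 5 of the 9 were higher (ATP6V0B, ATP6V1G1, CTSA, LAMP1 and NEU1) and 1 was lower (ATP6V0D1), beside 4 higher and 7 lower of the 21 and 19.2% and 22.1% of all genes. Without ρ0 control replicate 1 and 2, 6 and 5 of the 9 were higher and 2 were lower in both fits, and of the 21, 10 and 6 were higher and 7 and 11 lower. Of the 5 calls, those of CTSA and NEU1 were lost with 1 line alone or without either starved ρ0 library. The 3 genes with the longer palindrome went apart: GAA and MCOLN1 fell in parental cells and ATP6V1G1 rose. No test was made on these groups, and the absence of the letters from 300 bases says nothing about binding elsewhere.

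Further lysosomal genes, taken from 6 lists of 110 genes of which 106 were tested, filled in the picture. In parental cells 29 were higher and 53 lower (median log2 fold change -0.47), and in ρ0 cells 23 were higher and 32 lower (median 0.02). In the comparison of the lines 50 were higher and 20 lower in ρ0 control cells, and for the interaction 42 were higher and 17 lower. Without ρ0 control replicate 1, the counts of higher and lower genes were 48 and 35 in ρ0 cells, 53 and 31 between the lines and 58 and 26 in the interaction. Without replicate 2 they were 36 and 48, 71 and 21, and 46 and 30. The split in ρ0 cells thus turned with the library left out. Percentages over all genes are those given above for each comparison.

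Other glycosidases, sulfatases and lipid enzymes (27 genes) followed the listed enzymes, with 19 lower and 2 higher in parental cells and 16 higher against 1 lower in the interaction (20 against 3 and 16 against 4 without ρ0 control replicate 1 and 2). GM2A, the activator that presents GM2 ganglioside to hexosaminidase A, was at 53.5 and 54.9 CPM in parental control and 2.26 and 3.12 CPM in starved parental cells (-4.33 ± 0.26, adjusted p = 1.4e-05), and it went from 76.7 and 48.9 to 28.96 and 26.6 CPM in ρ0 cells (-1.18 ± 0.21). The fucosidase FUCA1 fell from 19.1 and 19.0 to 3.88 and 3.83 CPM in parental cells (-2.31 ± 0.22), and HGSNAT, which acetylates heparan sulfate, from 32.2 and 34.6 to 9.07 and 9.46 CPM (-1.85 ± 0.095). DNASE2, the lysosomal DNase, fell in parental (-1.65 ± 0.12) and rose in ρ0 cells (0.44 ± 0.11, adjusted p = 0.0175; 0.61 and 0.30 without ρ0 control replicate 1 and 2). AGA, which cleaves the sugar-asparagine bond of glycoproteins, rose in ρ0 cells from 22.2 and 17.9 to 46.0 and 47.4 CPM (1.22 ± 0.13, adjusted p = 0.000542). In control medium the ρ0 line had less GALC (-1.73 ± 0.15), the galactocerebrosidase.

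Of 11 other proteases tested, 6 were lower in parental cells. SCPEP1, a serine carboxypeptidase, fell from 55.0 and 56.8 to 12.99 and 13.6 CPM (-2.07 ± 0.23, adjusted p = 0.000152). CTSF had 1 and 0 counts in parental control and 1467 and 1061 counts in ρ0 control libraries, at least 438-fold higher when parental control is set to a floor of 3 counts per library. In starved ρ0 cells 5 of the 11 were lower and 1 higher, with a median log2 fold change of -0.50. SCPEP1 (-0.80 ± 0.21) and PRCP (-0.57 ± 0.095) were among the lower genes. The values of SCPEP1 were -0.38 and -1.11 without ρ0 control replicate 1 and 2. The higher gene was CTSL, from 268 and 229 to 339 and 321 CPM (0.41 ± 0.093, adjusted p = 0.011).

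Among 20 other membrane proteins, 7 were higher and 10 lower in parental cells. CLN3, a membrane protein mutated in juvenile neuronal lipofuscinosis, fell from 24.6 and 29.1 to 3.96 and 3.44 CPM (-2.86 ± 0.15, adjusted p = 1e-05), and the lipid transporter ABCA2 from 94.9 and 96.8 to 10.8 and 12.1 CPM (-3.06 ± 0.18, adjusted p = 1.35e-05). TMEM192 rose in both lines, from 32.2 and 29.1 to 82.2 and 82.7 CPM in parental (1.43 ± 0.16) and from 26.4 and 37.4 to 64.1 and 63.2 CPM in ρ0 cells (0.997 ± 0.15). LAMP3, an inducible relative of LAMP1, fell from 9.23 and 10.7 to 1.39 and 1.49 CPM in parental cells and rose from 1.35 and 1.64 to 37.2 and 34.7 CPM in ρ0 cells, with an interaction of 7.36 ± 0.23 (adjusted p = 2.09e-05).

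V-ATPase isoforms outside the list shifted against each other. ATP6V0A2 rose from 59.99 and 53.0 to 212 and 218 CPM in parental cells (1.93 ± 0.16, adjusted p = 4.72e-05), whereas TCIRG1, which encodes the a3 isoform of the same V0 subunit, fell from 103 and 113 to 21.1 and 20.8 CPM (-2.37 ± 0.18, adjusted p = 3.41e-05). Both genes moved in the same directions in ρ0 cells (0.84 ± 0.16 and -0.99 ± 0.17). ATP6V0A1, the listed isoform, did not pass the test in either line with all 8 libraries (0.10 ± 0.094 and 0.13 ± 0.094). Without ρ0 control replicate 1 and 2, its value was 0.25 and 0.03 in ρ0 cells and 0.10 and 0.14 in parental cells. ATP6V0E2 fell in parental (-1.76 ± 0.11) and ρ0 cells (-0.92 ± 0.11). Over the 19 isoform and assembly genes tested, 7 were higher and 9 lower in parental cells.

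Of 16 genes that sort enzymes to lysosomes, 5 were higher and 6 lower in parental cells. GNPTAB, which makes the mannose 6-phosphate tag, fell from 81.5 and 83.4 to 22.7 and 24.2 CPM (-1.81 ± 0.11, adjusted p = 1.43e-05) and from 30.5 and 25.7 to 14.8 and 14.1 CPM in ρ0 cells (-0.96 ± 0.11, adjusted p = 0.000685). NAGPA, which uncovers that tag, fell in parental (-2.26 ± 0.17) and ρ0 cells (-0.80 ± 0.16). Other genes of this list were higher. M6PR, a receptor of the tag, rose in starved parental cells (0.43 ± 0.077, adjusted p = 0.00184). IGF2R, the other receptor, went from 538 and 252 to 845 and 841 CPM in ρ0 cells (1.09 ± 0.30, adjusted p = 0.0216; 1.74 and 0.66 without ρ0 control replicate 1 and 2). CLN6, which helps newly made enzymes leave the endoplasmic reticulum, rose from 36.6 and 36.1 to 125 and 118 CPM in parental cells (1.74 ± 0.31, adjusted p = 0.00187). It had an interaction of -2.07 ± 0.44 (adjusted p = 0.00905; -2.53 and -1.40 without ρ0 control replicate 1 and 2), and its ρ0 control libraries stood at 39.9 and 89.2 CPM on either side of the starved ones at 51.6 and 51.2 CPM.

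The 13 TFEB regulators tested were higher more often than lower in parental cells (8 against 3, median 0.51). RRAGC, a GTPase that recruits mTORC1 and TFEB to the lysosome, rose from 29.9 and 29.7 to 63.0 and 63.3 CPM in parental (1.08 ± 0.077, adjusted p = 2.47e-05) and from 78.1 and 71.9 to 133 and 132 CPM in ρ0 cells (0.82 ± 0.075, adjusted p = 0.000289). FNIP1, a partner of folliculin, rose in parental (1.34 ± 0.086) and ρ0 cells (0.56 ± 0.083). RRAGB moved in the opposite direction in both lines (-1.76 ± 0.19 and -0.69 ± 0.17). Its ρ0 value was -0.88 and -0.46 without ρ0 control replicate 1 and 2. RRAGD rose in both lines (0.57 ± 0.10 and 0.63 ± 0.11).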

How the data were processed

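RNA from 8 samples (4 groups of 2) was sequenced. The authors deposited raw read counts per gene in one table. The submitters' processing notes name Bowtie, Partek and the hg19 build, and versions, annotation and the strand used in counting are not given in the sources used here. Library totals ranged from 25259503 to 31022155 counts. Genes were filtered with filterByExpr by group and tested in edgeR (version 4.0.16, R 4.3.3) with TMM factors and 4 group means. The fit had 4 residual degrees of freedom and a common biological coefficient of variation of 12.4%. The code was first checked on simulated counts, in which, unlike here, few genes were changed. For parental starvation 8.82% of log2 changes of 0.5 and 51.5% of those of 1 were recovered. For the interaction these were 0% and 27.3%. A gene that did not pass the test is therefore not shown to be unchanged. Standard errors were obtained from the log2 fold change and F.

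The genes and lists were chosen with earlier results of these data known. The rule for values per library named the TFEB family, LAMP1, LAMP2 and, in each comparison, at most 6 of the 43 genes and at most 3 of each further list. These were the called genes with the largest log2 fold change whose mean reached 10 CPM and whose groups were separate (interaction: the same sign in both replicate numbers). Values outside that rule, such as those of CTSC and PSAP in parental cells, were chosen after they were seen. Alternatives comprised other scalings (DESeq2 size factors, upper quartile, total counts), other filters (none, or 10 counts in each library), other tests (DESeq2 1.42.0, limma-voom 3.58.1), a block for the replicate number, 1 line alone and the omission of each library. Leaving out each ρ0 control library for the further lists and genes and the promoter groups was chosen after seeing the data. Promoters came from RefSeq (GRCh38.p14; 30 of 43 symbols matched) and transcript lengths from GENCODE 29 (43 of 43). Coordinates of the counting build were not used.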

Additional observations from a re-analysis of the deposited data

Results flagged for a closer look

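For 25 of the 43 genes the response to starvation differed between the lines by the interaction test of edgeR (adjusted p under 0.05; 40.4% of all genes tested passed it). The following differences are ρ0 minus parental on the log2 scale. Among the enzymes, activator and membrane proteins the difference was 2.45 for CTSS, 2.44 for CTSA, 1.69 for GAA, 1.63 for LIPA and 1.52 for TPP1. It was 1.31 for ASAH1, 1.31 for SCARB2, 1.24 for CTSB, 1.10 for GLB1 and 1.01 for NPC1. Smaller differences of the same sign were found for HEXA (0.99), CTSD (0.87), MCOLN1 (0.86), GUSB (0.84), PPT1 (0.70) and LAMP1 (0.66). Of the enzymes, CTSC responded lower in ρ0 cells (-0.89), and MITF did so among the transcription factors (-1.69). In the V-ATPase the difference was 0.52 for ATP6V1H, -0.64 for ATP6V0E1, -0.64 for ATP6V0B, -0.62 for ATP6V1D, -0.56 for ATP6V1F, -0.56 for ATP6V1G1 and -0.33 for ATP6V1A. Each of these calls rests on the ρ0 control pair, whose libraries differed by a biological coefficient of variation of 25.1%. All 25 calls were kept without either library of that pair. ATP6V1A, ATP6V1F, ATP6V1G1 and ATP6V1H lost their call when another library was left out, and ATP6V1A also with upper quartile or total-count scaling, without a filter and with the replicate number as a block. Groups of 2 libraries allow no test for single outlying samples.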

How the results depend on the processing

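No gene called among the 43 changed sign under any alternative. Of the 32 calls in parental cells, 29 to 32 were kept under each alternative, of the 24 in ρ0 cells 14 to 24, of the 31 between the lines 27 to 31 and of the 25 in the interaction 22 to 25. Up-regulated DEGs in parental cells numbered 1 instead of 4 with upper quartile scaling and 0 with total counts. In ρ0 cells, 7 instead of 12 genes were higher with 1 line alone, and 7 to 23 when single libraries were left out. Lower genes there ranged from 7 to 18 without single libraries, up-regulated DEGs were 0 with total counts and 0 to 2 without single libraries, and down-regulated DEGs (0) became 1 with upper quartile scaling, 2 with total counts, 1 with the filter of 10 counts and 0 to 2 without single libraries. Interaction calls below 0 (8) ranged from 5 without parental starved replicate 2 to 16 without ρ0 control replicate 2. Fits without a ρ0 control library lose the pair with the widest spread, so their pooled spread is smaller. Values that had not passed the test changed sign under at least 1 alternative for 7 of 11 genes in parental cells, 10 of 19 in ρ0 cells, 6 of 12 between the lines and 4 of 18 in the interaction. LIPA did so in ρ0 cells (0.17 without ρ0 control replicate 1) and between the lines (-0.40 without it and 0.59 without replicate 2). SCARB2 between the lines was -0.37 without ρ0 control replicate 1 and 0.38 without replicate 2. LAMP2 in ρ0 cells ranged from -0.27 without ρ0 control replicate 2 to 0.26 without replicate 1. TFEB in ρ0 cells ranged from -0.014 without ρ0 control replicate 2 to 0.73 without replicate 1, and MITF between the lines was -0.040 with total counts and ranged from -0.047 without ρ0 control replicate 2 to 0.20 without replicate 1. The replicate numbers did not pair the samples (correlations of deviations -0.0971 to 0.0632). With the replicate number as a block, 12 genes were higher and 20 lower in parental cells, 11 and 12 in ρ0 cells, 24 and 6 between the lines and 17 and 7 in the interaction.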
